A study of Mus musculus with 4 samples.

Results

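MHC class I chains and the genes that load them with peptide were followed in CT26 cells with and without iRhom1. The 10 genes were taken by name from the expression table, out of 21677 gene symbols, by a rule that uses no measured value. They are the heavy chains H2-D1, H2-T23 and H2-M3, the light chain B2m, the peptide transporter subunits Tap1 and Tap2, the chaperones Tapbp and Tapbpl, the trimming enzyme Erap1 and the transactivator Nlrc5. H2-K1, the other classical heavy chain of the reference genome, was not analysed here.

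CT26 is a mouse colon carcinoma line from a BALB/c animal. The comparison addresses how gene expression in these cells differs without iRhom1. Bulk RNA was sequenced in 2 Control libraries, named S17 and S19, and in 2 iRhom1 KO libraries, named S18 and S20. The KO line lacks iRhom1 (gene Rhbdf1), an inactive rhomboid protease of the endoplasmic reticulum. It was made with a lentiviral CRISPR vector and grown from a single clone, so clone and genotype cannot be told apart. Whether the sequenced Control cells carried a vector is not stated, so vector and genotype cannot be told apart either. The study gives the same medium for CT26 cells and names no drug for the sequenced cells. The study's text calls the compared cells WT in one place and a control sample in another, and it mentions independent experiments without tying single libraries to them. The p-values therefore measure only the spread between these libraries, which may be technical.

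A class I molecule is a heavy chain paired with beta-2-microglobulin and a short peptide, and it shows fragments of the cell's own proteins to CD8+ T cells. Peptides cut by the proteasome are pumped into the endoplasmic reticulum by the TAP1-TAP2 transporter, trimmed there by ERAP1 and fitted into the heavy chain with the help of tapasin. Loss of these genes in tumour cells is a known route of escape from T cells. NLRC5 acts with RFX, CREB/ATF and NFY proteins on a shared promoter module of class I genes. In that module a TGACG core is the CREB/ATF site and a CCAAT box is the NFY site.

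The promoters are shown so that the letters of this module can be read beside values that differed from gene to gene. The letters are those of the reference genome, which comes from another mouse strain than the BALB/c cells measured here. Whether those cells carry the same letters at the same spacing was not tested. Each window runs from 250 bases before to 50 after the start site (RefSeq, GRCm38.p6), and 7 of the 10 genes had one. Tap2, Tapbpl and Nlrc5 had none. Capitals mark matches, on either strand, to the CREB/ATF core TGACG, to CCAAT, which reads ATTGG on the other strand, and to the letters of interferon response and NF-kB sites. The interferon response letters searched were AANNGAAA, where N is any base, and a longer form that has GA directly before them, so that the forms overlap. The NF-kB letters were GGG and, after any 2 bases, TTCCC. The 3 windows below, of H2-D1 (chr17:35262844-35263143, plus strand), H2-M3 (chr17:37269984-37270283, plus strand) and B2m (chr2:122147437-122147736, plus strand), hold the same pair of letters at the same spacing.
H2-D1: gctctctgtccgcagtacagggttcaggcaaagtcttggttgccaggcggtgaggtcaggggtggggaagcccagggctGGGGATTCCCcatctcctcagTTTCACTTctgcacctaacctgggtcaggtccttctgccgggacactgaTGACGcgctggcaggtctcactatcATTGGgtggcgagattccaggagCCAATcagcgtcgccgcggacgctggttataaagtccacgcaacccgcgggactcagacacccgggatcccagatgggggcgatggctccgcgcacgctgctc
H2-M3: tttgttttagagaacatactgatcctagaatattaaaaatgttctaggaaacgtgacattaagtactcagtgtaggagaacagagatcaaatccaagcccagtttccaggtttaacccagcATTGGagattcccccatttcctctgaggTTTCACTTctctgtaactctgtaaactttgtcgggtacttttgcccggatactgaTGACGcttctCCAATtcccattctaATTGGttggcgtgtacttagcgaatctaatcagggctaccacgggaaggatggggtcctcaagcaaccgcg
B2m: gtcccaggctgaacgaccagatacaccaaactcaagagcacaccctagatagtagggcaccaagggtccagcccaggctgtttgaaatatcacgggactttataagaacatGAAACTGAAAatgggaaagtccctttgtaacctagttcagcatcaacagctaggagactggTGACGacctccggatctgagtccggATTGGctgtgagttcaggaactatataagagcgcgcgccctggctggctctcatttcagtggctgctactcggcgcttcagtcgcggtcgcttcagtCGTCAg
In H2-D1 the TGACG begins at -101 and an ATTGG at -76, counted with the start site as base 0. The pair stands at -46 and -21 in H2-M3 and at -78 and -53 in B2m. The distance between the first bases was 25 in each of the 3 genes. Of 32851 RefSeq windows of the same length, 31 (0.0944%) held TGACG and ATTGG on 1 strand at this distance, in either orientation. This spacing was looked up after the positions had been seen.

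The next windows belong to the gene that rose and to Erap1. They are Tap1 (chr17:34187306-34187605, plus strand) and Erap1 (chr13:74639603-74639902, plus strand).
Tap1: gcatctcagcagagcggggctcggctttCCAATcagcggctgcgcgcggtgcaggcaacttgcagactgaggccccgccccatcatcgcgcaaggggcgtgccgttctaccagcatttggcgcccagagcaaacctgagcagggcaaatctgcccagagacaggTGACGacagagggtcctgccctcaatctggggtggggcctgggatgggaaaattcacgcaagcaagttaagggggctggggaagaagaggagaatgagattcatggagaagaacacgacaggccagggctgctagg
Erap1: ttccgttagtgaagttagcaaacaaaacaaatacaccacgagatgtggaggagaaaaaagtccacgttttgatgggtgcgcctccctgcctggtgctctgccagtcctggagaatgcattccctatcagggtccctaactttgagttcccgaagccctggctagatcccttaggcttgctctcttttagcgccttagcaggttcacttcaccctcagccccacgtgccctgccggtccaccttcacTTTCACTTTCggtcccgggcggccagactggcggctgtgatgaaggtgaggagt
Tap1 held 1 TGACG, at -86, and 1 CCAAT, at -222, so the pair was present in another order and at another distance. Erap1 held neither. Its window had the longer interferon response letters at -4, on the other strand. TGACG was present in 4 of the 7 windows and in 20.8% of all windows. CCAAT was present in 6 and in 37.4% of all windows. Both occurred together in 4, and in 7.73% of all windows. The longer interferon response letters were in 3 of the 7 (B2m, H2-T23 and Erap1) and in 3.44% of all windows, and the shorter form in 5 and in 23.9%. The NF-kB letters were in 1 (H2-D1, at -171) and in 1.75% of all windows. A match is a description of letters, and a window without one says only that these letters are not in it.

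Values are FPKM, fragments scaled by transcript length and by the mapped fragments of the library. Testing used limma on log2(FPKM + 0.5) and took in 10271 genes, those that averaged 1 FPKM or more in either group, and all 10 class I genes passed this filter. Fold changes are iRhom1 KO minus Control on that log2 scale, with limma's standard error (SE), and genes with a Benjamini-Hochberg adjusted p under 0.05 are called. The scale understates the change of genes at low FPKM. Over all tested genes, 1096 were higher and 2254 lower in iRhom1 KO, with a median log2 fold change of -0.10. With trimmed mean scaling between libraries this split became 1666 higher and 1695 lower. Quantile normalization gave 1605 and 1553.

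Rhbdf1, the targeted gene, read 0.538 and 0.890 FPKM in Control and 0.0940 and 0.0584 FPKM in iRhom1 KO, too low to be tested. In 3 of the 4 libraries its value is equal to that of Apobec2, so the row does not check the labels by itself. Ptprc, the pan-leukocyte marker, was at most 0.00630 FPKM, and the 6 leukocyte markers with a row summed to 5.25 to 5.45 FPKM in Control and 2.30 to 2.96 FPKM in iRhom1 KO, nearly all of it Cd68 and Lyz2. The endothelial marker Pecam1 was at most 0.00505 FPKM, and the 3 endothelial markers with a row summed to 2.93 to 3.07 FPKM and 0.0490 to 0.0786 FPKM, most of the former from Vwf. The 6 fibroblast markers with a row summed to 61.2 to 65.4 FPKM and 111 to 125 FPKM, most of it from Col1a2 and Col3a1. Col3a1 read 22.9 and 22.2 FPKM in Control and 58.8 and 67.5 FPKM in iRhom1 KO. Pdgfra was lower in iRhom1 KO, at 0.761 and 0.723 FPKM against 1.05 and 0.916 FPKM. Thy1 was at most 0.0265 FPKM. Of the 5 colon epithelial markers with a row, the sum was 18.8 to 19.9 FPKM and 36.8 to 38.0 FPKM. Krt8 read 0.0278 and 0 FPKM in Control and 6.80 and 7.03 FPKM in iRhom1 KO. Krt18 read 8.58 and 9.39 FPKM in Control and 17.4 and 18.3 FPKM in iRhom1 KO. Krt20 read 10.2 and 10.5 FPKM in Control and 13.6 and 11.3 FPKM in iRhom1 KO. Its log2 fold change of 0.24 did not pass the test (limma adjusted p = 0.147). Vil1 and Cdx2, of the same list, were under 0.28 FPKM in all 4 libraries. Within that range Cdx2 was higher in iRhom1 KO, at 0.243 and 0.270 FPKM against 0.0290 and 0.0168 FPKM. Epcam and Cdh1 were not analysed here. The part of these markers in the class I values was not tested.

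Of the 10 class I genes, Tap1 was higher in iRhom1 KO, and H2-M3, Erap1 and Tapbp were lower, while 6 did not pass the test. In bulk RNA, fewer cells with a transcript and less of it per cell cannot be told apart. Among all tested genes 32.6% were called, 10.7% higher and 21.9% lower, so 1 higher and 3 lower of 10 is close to the background. The Control and iRhom1 KO libraries did not overlap for 7 of the 10 genes (2 with iRhom1 KO above, 5 below), against 72.0% of all tested genes (25.9% above, 46.1% below). The median log2 fold change of the 10 genes was -0.10, the same to 2 decimals as that of all tested genes.

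**Figure D1:**
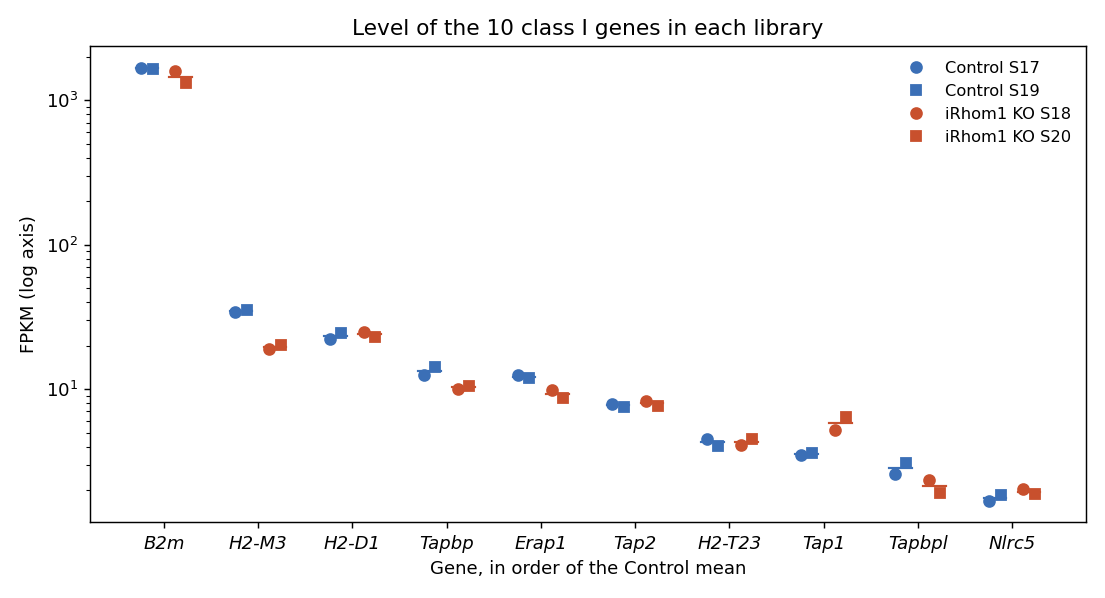
FPKM of the 10 class I genes (log axis) in each library, in order of the Control mean. Blue points are Control libraries, orange points iRhom1 KO libraries and short lines the group means. B2m lies far above the rest, Tap1 is higher in both iRhom1 KO libraries and H2-M3 is lower in both.

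The levels span a wide range. B2m was at 1668 ± 19.9 FPKM in Control (SD, n = 2) and Nlrc5 at 1.77 ± 0.117 FPKM. In Control the order was B2m, H2-M3, H2-D1, Tapbp, Erap1, Tap2, H2-T23, Tap1, Tapbpl and Nlrc5, and only Tapbp and Erap1 overlapped among neighbours in that order. In iRhom1 KO the H2-D1 libraries lay above those of H2-M3, and the Tap1 libraries above those of H2-T23. Tapbpl and Nlrc5 overlapped there. 

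H2-D1 (ENSMUSG00000073411.11, chr17:35262730-35267499) encodes a classical heavy chain. Its level was 22.1 and 24.6 FPKM in Control and 24.97 and 23.1 FPKM in iRhom1 KO. The groups overlapped, and the log2 fold change was 0.04 (SE 0.0856, limma adjusted p = 0.736). H2-T23 (chr17:36029773-36032855, minus strand), the mouse Qa-1 chain that presents signal peptides to NK-cell receptors, read 4.54 and 4.01 FPKM in Control and 4.12 and 4.50 FPKM in iRhom1 KO. These groups overlapped too, with a log2 fold change of 0.01 (SE 0.0934, limma adjusted p = 0.942).

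H2-M3 (chr17:37270220-37274484) presents formylated peptides of bacterial or mitochondrial origin. It was at 34.0 and 35.1 FPKM in Control and at 19.1 and 20.3 FPKM in iRhom1 KO. Both iRhom1 KO libraries were well below both Control libraries, and the ratio of the means was 0.570. The log2 fold change was -0.80 (SE 0.0654, limma adjusted p = 0.00563). H2-M3 stayed called under every alternative run, those that left out 1 library included, where the fold change ran from -0.84 to -0.76.

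Class I heavy chains form a gene family, in which the classical chains are close in sequence and H2-T23 and H2-M3 are more distant. CT26 carries the H-2d alleles of BALB/c mice, while GRCm38 is built on C57BL/6J. The levels of H2-D1 and the other H-2 chains are therefore uncertain where reads were shared with another chain or not aligned. How many reads were was not tested. The order of these chains by level and the ratios with H2-D1 carry the same limit. H2-K2, an annotated class I pseudogene of chromosome 17 named after its values were seen, read 21.6 and 20.7 FPKM in Control and 27.9 and 20.8 FPKM in iRhom1 KO. The log2 fold change of 0.19 did not pass the test (limma adjusted p = 0.386).

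B2m (chr2:122147686-122153083), the shared light chain, read 1682 and 1654 FPKM in Control and 1587 and 1307 FPKM in iRhom1 KO. Both iRhom1 KO libraries were below Control, but S20 was below S18 by more (-0.28 on the log2 scale) than S19 was below S17 (-0.02). The log2 fold change of -0.21 (SE 0.113) did not pass the test (limma adjusted p = 0.214). It was -0.07 without S20 and -0.35 without S18 (limma adjusted p = 0.450 and 0.0559). B2m was at the 99.8th percentile of level among tested genes in Control. The FPKM ratio of B2m to H2-D1 was 76.1 and 67.3 in Control and 63.6 and 56.6 in iRhom1 KO. Written as H2-D1 over B2m, the ratio was higher in iRhom1 KO by 0.25 on the log2 scale, without overlap. The ratios between genes were not tested. With 2 libraries a side, the smallest two-sided p of an exact permutation test is 0.33.

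Tap1 (chr17:34187553-34197225) and Tap2 (chr17:34203527-34216321) lie side by side and form the transporter as a pair. Tap1 read 3.52 and 3.63 FPKM in Control and 5.23 and 6.44 FPKM in iRhom1 KO. Each iRhom1 KO library was above both Control libraries, by a ratio of the means of 1.63. The log2 fold change was 0.63 (SE 0.114, limma adjusted p = 0.0224), and it stayed called under every alternative, from 0.49 to 0.77 with 1 library left out. Tap2 read 7.89 and 7.56 FPKM in Control and 8.24 and 7.67 FPKM in iRhom1 KO, and these groups overlapped. Its log2 fold change was 0.04 (SE 0.0724, limma adjusted p = 0.699).

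The ratio of Tap1 to Tap2 was 0.446 and 0.480 in Control and 0.635 and 0.839 in iRhom1 KO. The groups were apart, with a difference of 0.67 on the log2 scale. Without the S20 library it was 0.46.

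Tap1 shares its promoter with Psmb9, the immunoproteasome subunit on the opposite strand. The 2 RefSeq windows hold 275 bases in common (chr17:34187306-34187580), with start sites 226 bases apart and 60.7% G or C. Psmb9 read 0.588 and 1.25 FPKM in Control and 2.43 and 3.59 FPKM in iRhom1 KO, a log2 fold change of 1.33 (SE 0.293, limma adjusted p = 0.0337). The annotated genes overlap by 212 bases, and reads there could be assigned to either gene if strand was not used in counting.

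**Figure D2:**
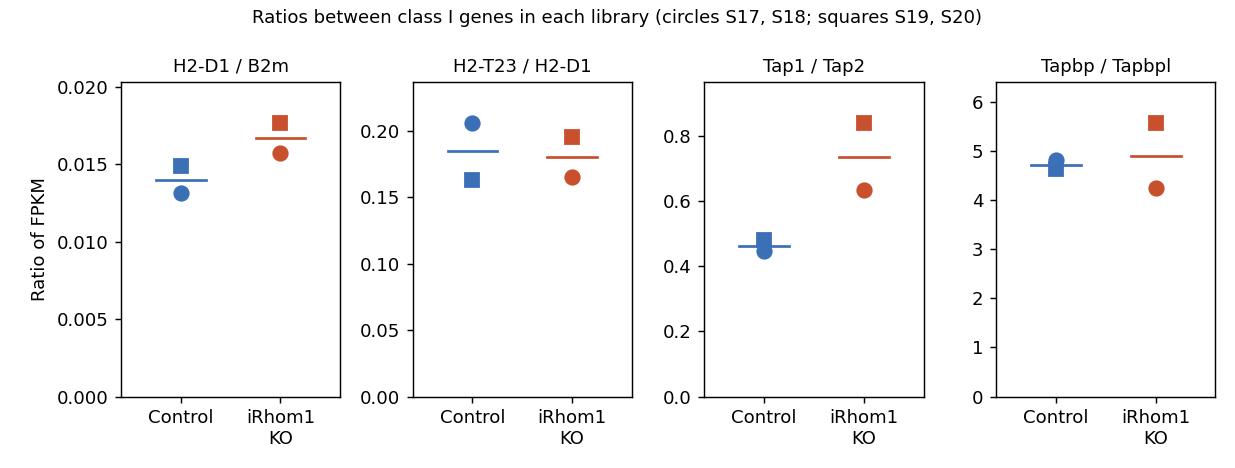
FPKM ratios between pairs of class I genes in each library, with lines at the group means and axes that start at 0. Tap1 over Tap2 and H2-D1 over B2m are apart between the groups, at 0.635 and 0.839 against 0.446 and 0.480 for the first pair. The other pairs overlap.

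Tapbp (chr17:33915899-33929292), tapasin, bridges the heavy chain to the transporter. It read 12.5 and 14.2 FPKM in Control and 9.99 and 10.6 FPKM in iRhom1 KO. The iRhom1 KO libraries were below Control, with a log2 fold change of -0.36 (SE 0.0888, limma adjusted p = 0.0425). The call was lost when any 1 of the libraries was left out, at limma adjusted p = 0.0526 without S17, 0.174 without S19, 0.129 without S18 and 0.103 without S20. Zbtb22 lies inside the annotated Tapbp gene on the same strand.

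Tapbpl (chr6:125223933-125231860, minus strand), a tapasin relative that edits peptides outside the TAP complex, read 2.60 and 3.08 FPKM in Control and 2.35 and 1.90 FPKM in iRhom1 KO. The groups did not overlap, but the log2 fold change of -0.35 (SE 0.131) did not pass the test (limma adjusted p = 0.109), and it ran from -0.47 to -0.22 with 1 library left out. Tapbp over Tapbpl was 4.82 and 4.63 in Control and 4.25 and 5.56 in iRhom1 KO, which overlap. Vamp1, on the opposite strand, covers all 7928 bases of Tapbpl and was at 0.0503 to 0.123 FPKM.

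Erap1 (chr13:74639568-74693201) trims the peptides to length. It read 12.5 and 11.8 FPKM in Control and 9.80 and 8.67 FPKM in iRhom1 KO, without overlap. The log2 fold change was -0.38 (SE 0.0867, limma adjusted p = 0.0355). Leaving out S17, S19 or S20 ended the call, at limma adjusted p = 0.128, 0.0763 and 0.0826.

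Nlrc5 (chr8:94434356-94527272), the class I transactivator, read 1.69 and 1.86 FPKM in Control and 2.02 and 1.88 FPKM in iRhom1 KO. Both iRhom1 KO libraries were above Control, S20 only just above S19. The log2 fold change of 0.11 (SE 0.0866) did not pass the test (limma adjusted p = 0.384), and it ran from 0.05 to 0.16 with 1 library left out.

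Other annotated genes share bases with some of these loci. Patl2, opposite to B2m over its whole length, was at most 0.0352 FPKM, and A930015D03Rik, antisense to H2-T23, was at 0.325 to 0.459 FPKM. Cast overlaps Erap1 by 834 bases on the opposite strand and was not analysed here. Whether the counting used strand is not given in the sources used here, so reads of such pairs cannot be told apart.

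The chromosomes that carry these genes differed in their medians. Tested genes of chromosome 17, other than the class I genes, had a median log2 fold change of -0.37, and those of chromosome 13 of -0.34. The medians were -0.07 for chromosome 2, -0.06 for chromosome 6 and -0.10 for chromosome 8, close to that of all tested genes, and became 0.02, 0.04 and -0.01 with trimmed mean scaling. Of the 6 class I genes on chromosome 17, 1 was higher and 2 were lower, and their median was 0.02. The class I genes of chromosomes 2, 6 and 8 had a median of -0.21.

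**Figure D3:**
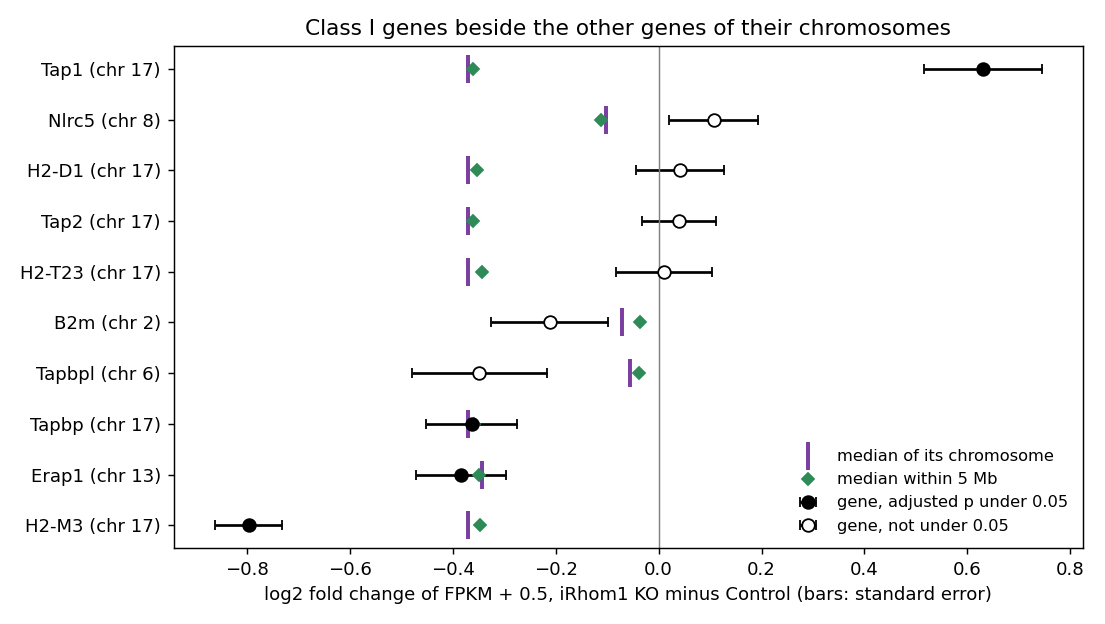
Log2 fold change of FPKM + 0.5 (iRhom1 KO minus Control) for each class I gene, with its standard error, beside the median of its chromosome (purple) and of the tested genes within 5 Mb (green). Filled points are called. Tap1 lies above its neighbours at 0.63, H2-M3 below them at -0.80, and Tapbp and Erap1 lie on them.

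Within 5 Mb of Tap1, 114 other genes were tested. Their median was -0.36, and 112 lay below Tap1 and 2 above it, Psmb9 and Psmb8. Of the 109 neighbours of H2-D1, 92 lay below it and 17 above. Of the 109 neighbours of H2-T23, 89 lay below it, and of the 114 of Tap2, 97. H2-M3 was at the other end, with 7 of 102 neighbours below it and 95 above. Tapbp was in the middle of its neighbours, with 57 of 119 below, and so was Erap1, with 16 of 34 below and a neighbour median of -0.35.

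When the median of the chromosome was taken off the iRhom1 KO values before the fit, the calls changed. Over all 10271 genes that fit called 1424 higher (13.9%) and 1263 lower (12.3%). Among the class I genes it called 4 higher and 1 lower. Tap1 then stood at 1.001, and H2-D1 at 0.41 (limma adjusted p = 0.0343), Tap2 at 0.41 (limma adjusted p = 0.0238) and H2-T23 at 0.38 (limma adjusted p = 0.0482) passed the threshold as higher. H2-M3 was still lower, at -0.43 (limma adjusted p = 0.0185). Tapbp, at 0.01, and Erap1, at -0.04, no longer passed (limma adjusted p = 0.959 and 0.756). These values are differences from the chromosome and not from Control alone.

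Tapbp and H2-M3 bound a stretch of 3.35 Mb that holds all 6 class I genes of chromosome 17. Of the 72 other tested genes in it, 3 were higher (H2-T22, Psmb8 and Psmb9) and 36 were lower, with a median of -0.41. H2-T24, a further class I chain, was among the lower ones. Over the rest of chromosome 17, 17 of 432 genes were higher and 214 were lower, with a median of -0.37.

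**Figure D4:**
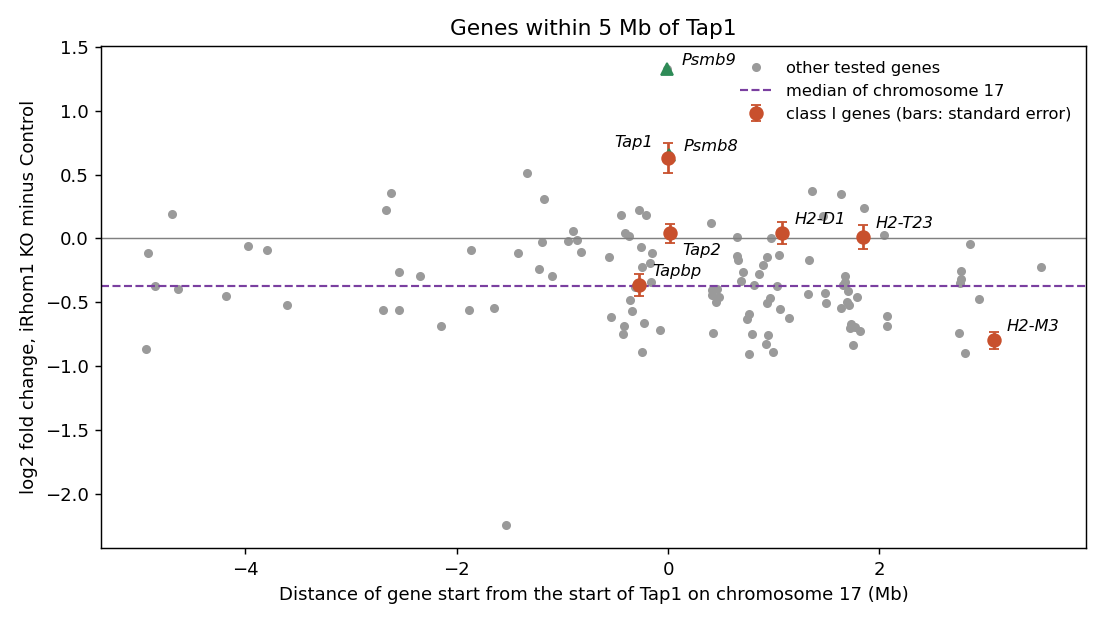
Log2 fold change (iRhom1 KO minus Control) of tested genes within 5 Mb of Tap1, against the distance of the gene start from Tap1 in Mb. Grey points are other genes, orange points class I genes with their standard errors, triangles Psmb9 and Psmb8, and the dashed line is the median of chromosome 17. Psmb9, Psmb8 and Tap1 stand together at the top, while H2-M3 is under the dashed line.

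The rest of the pathway was taken from lists written from general knowledge. Of 107 further pathway genes with a row, 96 were tested, 11 were higher and 20 lower, with a median log2 fold change of -0.07. Both shares are close to those of all tested genes, which were 10.7% higher and 21.9% lower. These shares are the background for each list below.

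Among 8 tested class I and class I-like chains, 2 were higher and 2 lower. H2-T22, a nonclassical chain seen by gamma-delta T cells, rose from 7.25 and 7.15 FPKM to 8.70 and 8.52 FPKM (0.24, limma adjusted p = 0.0478). Fcgrt, the neonatal Fc receptor chain, was higher by 0.33. H2-T24 (-0.72) and Hfe (-0.71), the class I-like regulator of iron uptake on chromosome 13, were lower.

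Of the 5 genes of the immunoproteasome and its activator, 2 were higher. Psmb8 read 5.87 and 6.54 FPKM in Control and 9.98 and 10.08 FPKM in iRhom1 KO, a log2 fold change of 0.65 (SE 0.0789, limma adjusted p = 0.00995). Psmb9 was the other one. Psmb10, the third inducible subunit, on chromosome 8, was at -0.23 and did not pass (limma adjusted p = 0.114). The 2 activator subunits Psme1 (0.23) and Psme2 (0.15) did not pass either. None of the 5 constitutive catalytic and activator genes was called by limma, and 1 of them had an unadjusted p under 0.05.

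Of 16 genes listed for folding, quality control or export of class I chains in the endoplasmic reticulum, 3 were higher and 4 lower. Calr, the calreticulin of the loading complex, was at 422 and 413 FPKM in Control and at 297 and 296 FPKM in iRhom1 KO (-0.49, limma adjusted p = 0.00965). Pdia3, the ERp57 partner of tapasin, was at 110 and 114 FPKM in Control and 82.8 and 67.5 FPKM in iRhom1 KO (-0.58, limma adjusted p = 0.0265). Bcap29 (-0.63) and Bcap31 (-0.25), export factors of the endoplasmic reticulum, were also lower. The disulfide isomerases Pdia6 (0.39) and P4hb (0.27) and the cargo lectin Lman1 (0.32) were higher.

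Of 12 peptidases of the cytosol and the endoplasmic reticulum, limma called none higher (0 at an unadjusted p under 0.05) and 4 lower. These were Dpp9 (-0.80) and Lnpep (-0.44) on chromosome 17, Nln (-0.70) on chromosome 13 and Lap3 (-0.26) on chromosome 5. Lnpep, which encodes IRAP, is the close relative of Erap1 in endosomes. All 4 lie on chromosomes with a low median, that of chromosome 5 being -0.23. The share called lower over all tested genes was 21.9%.

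**Figure D5:**
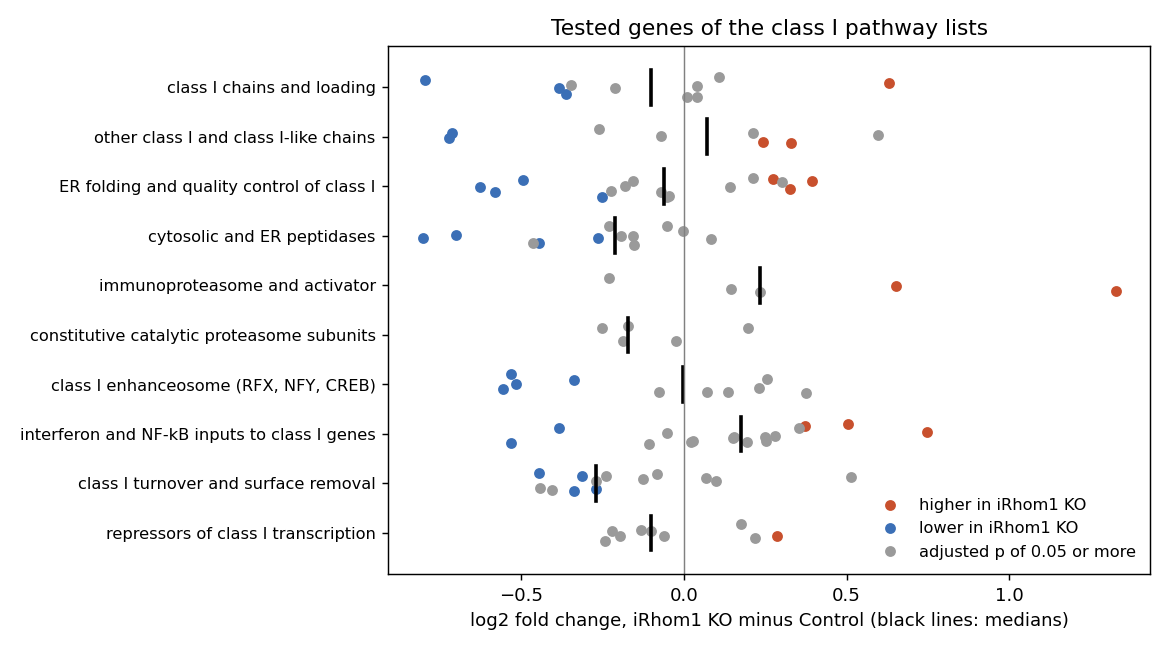
Log2 fold change (iRhom1 KO minus Control) of each tested gene in the class I lists, 1 row per list, with orange for higher, blue for lower, grey for genes that did not pass and a black line at the median. The immunoproteasome list reaches 1.33 at Psmb9. The lowest points are Dpp9 among the peptidases and H2-M3 among the class I genes, both at -0.80.

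Of 10 tested factors that bind or act at the class I promoter module, limma called none higher (2 at an unadjusted p under 0.05) and 4 lower. They were Atf1 (-0.56, chromosome 15), of the CREB/ATF family, and the acetyltransferase Kat2b (-0.34, chromosome 17). Nfya (-0.52, chromosome 17) and Nfyc (-0.53, chromosome 4), subunits of the CCAAT-binding NFY complex, were the others. Atf1, Nfya and Kat2b lie on chromosomes with a low median, that of chromosome 15 being -0.32. Among all tested genes 21.9% were called lower. Nfyb, the other NFY subunit, read 5.80 and 5.96 FPKM in Control and 7.43 and 6.80 FPKM in iRhom1 KO, without overlap, and its log2 fold change of 0.26 did not pass (limma adjusted p = 0.0654). The RFX subunits Rfx5 (0.14), Rfxap (0.07) and Rfxank (0.38) did not pass. Ciita, the class II transactivator, was at most 0.00392 FPKM in any library, and Cd74 was under 0.5 FPKM.

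Of 16 tested genes that carry interferon or NF-kB signals to class I promoters, 3 were higher and 2 lower, with a median of 0.17. Irf1, the interferon-induced factor that binds interferon response letters, read 4.32 and 4.46 FPKM in Control and 8.10 and 7.33 FPKM in iRhom1 KO (0.75, limma adjusted p = 0.00838). Socs3, a feedback inhibitor of JAK signalling, was at 0.50 and Jak2 at 0.37, and both were higher. The NF-kB subunit Rela (-0.53) and its inhibitor Nfkbia (-0.38) were lower.

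Of 13 genes that remove class I chains, limma called none higher (0 at an unadjusted p under 0.05) and 4 lower. These were Derl1 (-0.31), of the retrotranslocation channel, the ubiquitin ligase Wwp2 (-0.34), the adaptor subunit Ap1m1 (-0.45) and Susd6 (-0.27). Derl1 was near the median of its chromosome 15, which was -0.32. Among all tested genes 21.9% were called lower. Susd6 and Wwp2 are known to act together on surface class I. Tmem127, of the same list, read 3.89 and 2.62 FPKM in Control and 2.36 and 9.27 FPKM in iRhom1 KO. Its log2 fold change of 0.51 did not pass (limma adjusted p = 0.559). Of 9 tested repressors of class I transcription, Kdm1a, a histone demethylase, was higher (0.29). Limma called none lower (1 at an unadjusted p under 0.05).

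The 3 tested genes whose profile over the 4 libraries was closest to that of H2-D1 were Etfdh, Orc6 and Hint1. Their Euclidean distances on the centred log2 scale were 0.0155, 0.0156 and 0.0196. Hint1 read 277 and 305 FPKM in Control and 313 and 285 FPKM in iRhom1 KO, with S17 lowest as in H2-D1. The groups overlapped for H2-D1, so these profiles match in small differences between libraries. Shared regulation was not tested.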

How the data were processed

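Values were FPKM per gene and library, which the authors deposited after HISAT2 alignment on GRCm38 and StringTie quantification (versions not given in the sources used here). Their ratio and log2 ratio columns of the 2 group means were not used. Of 21724 rows, 19 whose name was a bare number were dropped and 54 rows of 26 repeated symbols were summed. Groups came from the column names. Read counts could not be recovered. Steps between low values of 9099 genes with 1 transcript gave an estimated 49700000 to 53400000 fragments per library, but only 29.5% to 31.7% of the values used lay within 0.05 of a whole fragment (10% if even). The test was limma-trend (limma 3.58.1, R 4.3.3) after a pseudocount of 0.5 FPKM was added, without a set test. The fit was also run on simulated data with independent genes and no shifted chromosomes. Those data differ from the real ones, so they do not show how the fit performs here. Python 3.11.15 with pandas 2.3.3 and matplotlib 3.10.9 did the rest. Positions are from GENCODE M21.

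The genes and lists were chosen with earlier results of these data known. All 10 class I genes are named, with Rhbdf1, Psmb9, the 3 genes closest to H2-D1 and up to 3 called genes per list and direction with the smallest p. Bcap31, Lap3, Nfyc and Susd6 complete counts and were named after their values were seen. So were H2-K2, Psmb10, Psme1, Psme2, Nfyb, the RFX subunits, Tmem127, Ciita, Cd74 and the single marker genes.

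Other settings were a pseudocount of 0.1 or 1, all genes kept, a filter of 5 FPKM, trimmed mean scaling, quantile normalization, robust limma, the highest row of a repeated symbol, the chromosome median subtracted, neighbour windows of 1 and 10 Mb and each library left out.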

Additional observations from a re-analysis of the deposited data

How the results depend on the processing

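The lower calls among the class I genes depended on the setting. They numbered 1 without a filter on low values, with quantile normalization and with the chromosome median subtracted, and 1 to 2 with 1 library left out, against 3. The higher calls numbered 4 with the chromosome median subtracted, against 1, where 13.9% of all tested genes were called higher, against 10.7%. Of 127 values of single class I genes under alternatives, 105 kept their direction and side of the threshold, 13 lost the call, 3 gained it and 6 turned direction.

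The turns were small. Tapbp was at 0.0078 with the chromosome median subtracted, and with 1 library left out H2-D1 ran from -0.034 to 0.117, H2-T23 from -0.070 to 0.090 and Tap2 from -0.0085 to 0.088. Tapbp also lost its call without the filter (limma adjusted p = 0.0752), with trimmed mean scaling (0.103) and with quantile normalization (0.121), as did Erap1 without the filter (0.0647) and with quantile normalization (0.0628). The log2 ratio of H2-T23 to H2-D1 ran from -0.19 to 0.14, and that of Tapbp to Tapbpl from -0.15 to 0.24, or -0.0061 with a pseudocount.

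Neighbour medians of the chromosome 17 genes stayed between -0.45 and -0.21. Those of B2m (0.060) and Tapbpl (0.059) were above 0 with trimmed mean scaling, and that of B2m ran from -0.044 to 0.043 with 1 library left out. Over all genes, higher calls numbered 727 with the 5 FPKM filter, 1666 with trimmed mean scaling and 561 to 745 with 1 library left out, and lower calls 1096 to 1713 then. Among the pathway genes, higher calls numbered 6 without the filter, 19 with trimmed mean scaling and 4 to 6 with 1 library left out. Lower calls numbered 12 without the filter, 7 with the chromosome median subtracted and 8 to 17 with 1 library left out. The cause of these shifts was not tested. With 1 library left out, the lone library of a group is assumed to vary like the others. No paired analysis was possible because the value columns carry library tags and no replicate number. Depth could only be estimated, so no counting interval is given.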
